A study of Homo sapiens with 6 samples.

Results

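The genes described here are 10 genes of the contractile machinery that acts below the small GTPase RHOA: the kinases ROCK1 and ROCK2, the myosin II regulatory light chains MYL9, MYL12A and MYL12B, the myosin II heavy chain MYH9, the myosin phosphatase subunit PPP1R12A, the LIM kinases LIMK1 and LIMK2 and the formin DIAPH1. They were taken by gene name from the 27605 genes of an RNA sequencing table. The rule used no measured value, but the genes were chosen with earlier results of these data known. The experiment asked how the transcriptome of HepG2 cells, a human hepatoma line, differs when ARHGEF2 is knocked down. The control group held 3 libraries of cells with a control hairpin (shNC, labelled wild type) and the other group 3 libraries of cells given a lentivirus with a short hairpin RNA against ARHGEF2 (shARHGEF2). All cells were grown in the same serum-containing medium, and the labels name no other treatment. Whether the 3 libraries of a group came from separate cultures, and whether the shARHGEF2 libraries carried 1 hairpin or several, is not given in the sources used here, so the p-values measure only the spread between these libraries.

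ARHGEF2, also known as GEF-H1, is a guanine nucleotide exchange factor that loads RHOA with GTP. RHOA-GTP opens and activates the ROCK kinases and the formin mDia1 (DIAPH1). ROCK raises the phosphorylation of the myosin regulatory light chains, both directly and by inhibiting the myosin phosphatase through its targeting subunit PPP1R12A, and it activates the LIM kinases, which phosphorylate and inactivate cofilin. All of these steps act on proteins, whereas the libraries measured only the transcripts.

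The 3 regulatory light chains are shown first by sequence, because their genes are close copies between which reads may be shared. The stretches below were read from the transcripts of GENCODE 29 (GRCh38). They are the 60 coding bases around the phosphorylation site, which begins at base 10 of each stretch with the adjacent threonine and serine codons acatcc, and capitals mark the positions at which the 3 genes are not all the same.
MYL9: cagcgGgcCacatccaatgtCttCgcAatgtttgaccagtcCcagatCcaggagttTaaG
MYL12A: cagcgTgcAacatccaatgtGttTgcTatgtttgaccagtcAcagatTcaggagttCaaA
MYL12B: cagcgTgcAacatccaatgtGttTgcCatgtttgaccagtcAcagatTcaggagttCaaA
The MYL9 stretch lies in exon 2 of 4 at chr20:36544930-36544989, the MYL12A stretch in exon 2 of 4 at chr18:3253290-3253349 and the MYL12B stretch in exon 2 of 4 at chr18:3272944-3273003, all on the plus strand. MYL12A and MYL12B differed at 1 of these 60 bases, and MYL9 differed from each of them at 9. Over the whole coding sequence, MYL12A and MYL12B were identical at 95.7% of 513 aligned bases, with 22 differences and a longest identical run of 77 bases, shorter than the 150 nt reads. MYL9 was identical to MYL12A at 79.3% and to MYL12B at 80.8% of aligned coding bases. The paralogues further apart were ROCK1 and ROCK2 (67.8% identical) and LIMK1 and LIMK2 (67.9%).

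A different property separates ROCK1, ROCK2 and PPP1R12A from the rest, namely base composition. The next 5 sequences are 60 bases from the middle of each coding sequence, with G and C in capitals, and are shown because the 3 genes low in G and C share an order of libraries that is described with their values.
ROCK1: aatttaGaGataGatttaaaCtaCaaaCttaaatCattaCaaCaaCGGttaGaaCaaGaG
ROCK2: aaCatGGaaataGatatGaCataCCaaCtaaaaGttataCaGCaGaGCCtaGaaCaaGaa
PPP1R12A: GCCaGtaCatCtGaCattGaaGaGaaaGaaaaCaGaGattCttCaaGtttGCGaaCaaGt
MYL9: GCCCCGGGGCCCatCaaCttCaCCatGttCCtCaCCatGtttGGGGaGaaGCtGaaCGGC
LIMK1: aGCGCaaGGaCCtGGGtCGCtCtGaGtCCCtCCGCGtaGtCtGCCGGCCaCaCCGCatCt
They lie at chr18:20991258-20991317 (ROCK1, minus strand, exon 18 of 33), chr2:11211772-11211831 (ROCK2, minus strand, exon 18 of 33), chr12:79807306-79808517 (PPP1R12A, minus strand, in exons 11 and 12 of 25, with an intron between the ends), chr20:36548076-36548135 (MYL9, plus strand, exon 3 of 4) and chr7:74107069-74107128 (LIMK1, plus strand, exon 8 of 16). G and C made up 16, 20 and 23 of the 60 bases in ROCK1, ROCK2 and PPP1R12A and 36 and 40 in MYL9 and LIMK1. Over the whole transcript, the GC content was 40.5% for ROCK1, 39.9% for ROCK2 and 39.1% for PPP1R12A, against 60.5% for MYL9, 61.0% for LIMK1 and 58.6% for MYH9. MYL12A (44.9%), MYL12B (49.5%), DIAPH1 (50.9%) and LIMK2 (54.4%) stood between.

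The knockdown was seen at the targeted transcript. ARHGEF2 (chr1:155946851-156007070, minus strand) stood at 13.0, 14.4 and 13.9 FPKM (fragments per kilobase of transcript, scaled to the size of the library) in shNC libraries 1 to 3 and at 4.25, 4.0 and 4.82 FPKM in shARHGEF2 libraries 1 to 3. The groups were far apart, and the ratio of the means was 0.316. In bulk RNA, fewer cells with a transcript and less of it per cell cannot be told apart. The log2 fold change of FPKM + 1, the scale of all fold changes below, was -1.47 ± 0.11 (SE, n = 3 libraries per group), with an adjusted p of 0.00244 in limma, Benjamini-Hochberg over the 12291 genes that averaged 0.5 FPKM or more. That call was lost with a replicate block (adjusted p = 0.0716) and without the filter on low values (adjusted p = 0.0701). RHOA itself, the GTPase between ARHGEF2 and the effectors, stood at 222, 210 and 213 FPKM in shNC and at 212, 205 and 210 FPKM in shARHGEF2, a log2 fold change of -0.04 ± 0.07 (SE) with an adjusted p of 0.866 in limma.

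The labelled cell type was checked against its markers. Of 15 hepatocyte markers, 8 were in the table and only VTN averaged at least 1 FPKM, with AFP, APOA1, APOC3 and SERPINA1 at or below 0.248 FPKM in every library and HNF4A at or below 0.096. The other 7, with ALB and APOB among them, were not analysed here. The sum of the list was 5.92 to 6.21 FPKM in shNC and 6.67 to 7.57 FPKM in shARHGEF2. The keratins KRT8, KRT18 and KRT19 were high, and EPCAM and CDH1 were at most 0.055 FPKM. Of 6 mesenchymal or fibroblast markers, VIM, CDH2 and COL1A1 averaged at least 1 FPKM. The other 3 did not, with COL1A2 at most 0.045, THY1 at most 0.065 and PDGFRB at most 0.673 FPKM. None of the 3 endothelial markers in the table averaged 1 FPKM. Of the 8 hepatocyte markers in the table, 7 thus stayed under 1 FPKM in every library of both groups. Among these, RBP4 reached 0.907 FPKM in shARHGEF2 1, while VTN stood at 5.51 to 6.60 FPKM over the 6 libraries. The name HepG2 rests on the labels.

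All 10 effector genes were detected in every library and passed the filter on low values. None of them differed between the groups at an adjusted p under 0.05, a threshold that 34 of the 12291 genes tested passed (0.277%, with 0.195% above 0 and 0.0814% below). At an unadjusted p under 0.05 there was 1 of 10, MYH9, where 13.7% of all genes stood below that value (8.10% with higher and 5.55% with lower values in shARHGEF2). MYH9 was also the 1 gene of 10 whose groups did not overlap, against 20.5% of all genes tested. The fitted log2 fold changes were above 0 for 4 genes and below 0 for 6, with a median of -0.05, and their median size was 0.10 against 0.13 over all genes tested. Without shARHGEF2 replicate 1, 3 of the 10 were below 0, and the median of all genes tested was 0.0289. MYH9 was no longer under an unadjusted 0.05 when shNC replicate 2 or 3 or shARHGEF2 replicate 2 or 3 was left out. The adjusted p-values of the 10 genes ran from 0.28 to 1.00 in limma. For the 7 effectors with a mean of at least 1 FPKM, the 95% intervals of the log2 fold change all lay between -0.53 and 0.40.

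**Figure D1:**
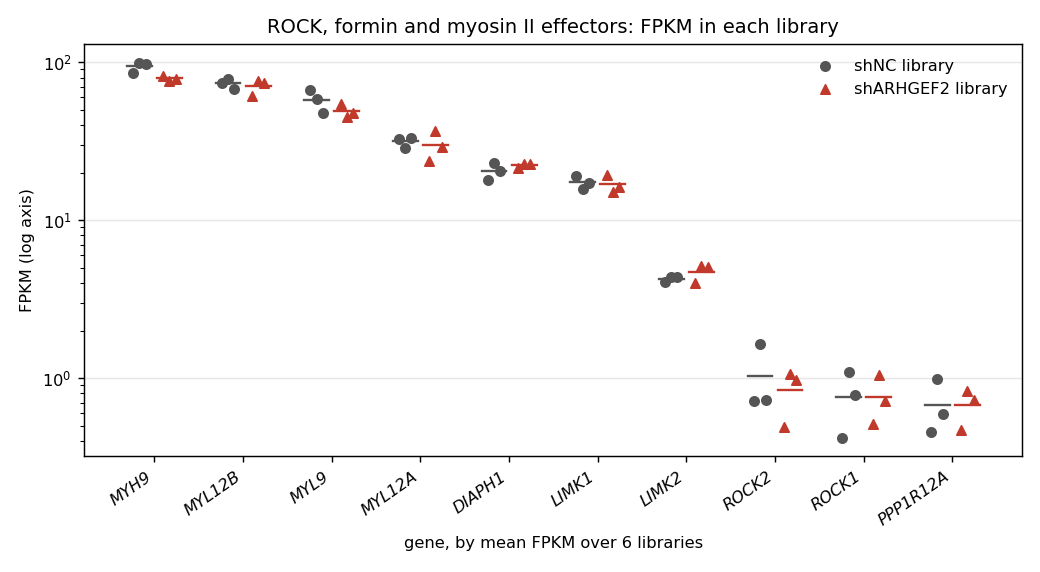
FPKM on a log axis for the 10 effector genes, ordered by mean level, with 1 point per library (grey circles shNC, red triangles shARHGEF2, 3 each) and short lines at the group means. MYH9 is the one gene whose groups do not overlap, and ROCK2, ROCK1 and PPP1R12A lie lowest and spread most between libraries of the same group.

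In order of level per transcript length, the means over the 6 libraries were 86.5 FPKM for MYH9, 72.1 for MYL12B, 53.5 for MYL9, 30.6 for MYL12A, 21.4 for DIAPH1, 17.1 for LIMK1, 4.49 for LIMK2, 0.937 for ROCK2, 0.763 for ROCK1 and 0.676 for PPP1R12A. By FPKM, the chains of the motor were the abundant transcripts, and the ROCK kinases and the phosphatase subunit were scarce. These scarce genes were also the effectors lowest in G and C, and levels were not adjusted for base composition between genes. The ranges over libraries did not overlap between MYL9 and MYL12A, MYL12A and DIAPH1, LIMK1 and LIMK2, or LIMK2 and ROCK2. Neighbours whose ranges overlapped were MYH9 and MYL12B, MYL12B and MYL9, DIAPH1 and LIMK1, ROCK2 and ROCK1, and ROCK1 and PPP1R12A. Within a library, MYL12B stood above MYL9 in 6 of 6, MYH9 above MYL12B and DIAPH1 above LIMK1 in 5 of 6, and ROCK2 above ROCK1 in 4 of 6.

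ROCK1 (chr18:20946906-21111851, minus strand) and ROCK2 (chr2:11179761-11348330, minus strand) encode the serine/threonine kinases through which RHOA drives contraction. ROCK1 stood at 0.420, 1.09 and 0.784 FPKM in shNC and at 0.513, 1.05 and 0.720 FPKM in shARHGEF2. The second library was the highest and the first the lowest in both groups, and the highest of the 6 was 2.6 times the lowest. The group means were 0.765 ± 0.336 and 0.761 ± 0.270 FPKM (SD, n = 3 each), and the log2 fold change was 0.003 ± 0.171 (SE) with an adjusted p of 0.997 in limma. ROCK2 stood at 0.712, 1.66 and 0.729 FPKM in shNC and at 0.488, 1.06 and 0.971 FPKM in shARHGEF2. Here too the second library was the highest of each group, and the spread over the 6 libraries was 3.39 times. Its log2 fold change was -0.13 ± 0.20 (SE), with an adjusted p of 0.849 in limma. Because adding 1 FPKM compresses values this low, both were also fitted with a pseudocount of 0.1 FPKM, which gave 0.03 (95% interval -0.80 to 0.85) for ROCK1 and -0.23 (95% interval -1.10 to 0.64) for ROCK2. On the log2(FPKM + 1) scale the intervals were narrower, from -0.39 to 0.39 for ROCK1 and from -0.58 to 0.33 for ROCK2. ROCK2 made up 57.1% ± 7.86 of the summed FPKM of both kinases in shNC and 52.2% ± 4.6 in shARHGEF2 (SD, n = 3 each; exact permutation test, two-sided, p = 0.4, adjusted p = 0.9 over 5 tests of shares and sums, where 3 libraries against 3 cannot go below 0.1). The pseudogene ROCK1P1 reached at most 0.0861 FPKM.

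PPP1R12A (chr12:79773563-79935460, minus strand) encodes MYPT1, the subunit that brings the phosphatase to myosin and that ROCK phosphorylates. It stood at 0.454, 0.993 and 0.593 FPKM in shNC and at 0.467, 0.826 and 0.725 FPKM in shARHGEF2. Its order of libraries was that of ROCK1, with the first library lowest and the second highest in each group. The log2 fold change was 0.0005 ± 0.148 (SE), with an adjusted p of 1.00 in limma, and with a pseudocount of 0.1 FPKM the 95% interval ran from -0.73 to 0.76.

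The order of libraries that these 3 genes share was also that of other transcripts low in G and C. Over the 2169 tested genes with a GC content of at most 42%, the median deviation from the 6-library mean, as log2 of FPKM over mean FPKM, was -0.21, 0.25 and -0.06 in shNC 1 to 3 and -0.34, 0.21 and 0.02 in shARHGEF2 1 to 3. Over the 3152 genes with at least 58% it was -0.01, -0.12 and 0.01 in shNC and 0.10, -0.04 and 0.00 in shARHGEF2. The deviations of ROCK1 itself were -0.86, 0.52 and 0.04 in shNC and -0.57, 0.46 and -0.08 in shARHGEF2, those of a single gene and not a median over genes. When the trend on GC content was removed from each library, an alternative added after the data were seen, the within-group SD on the log2(FPKM + 1) scale went from 0.252 to 0.125 for ROCK1, from 0.313 to 0.177 for ROCK2 and from 0.202 to 0.067 for PPP1R12A. It also fell for LIMK1 (0.150 to 0.104), DIAPH1 (0.127 to 0.086) and MYL12B (0.138 to 0.097), by less, and moved little for MYL12A (0.227 to 0.217), MYL9 (0.196 to 0.190), LIMK2 (0.124 to 0.125) and MYH9 (0.094 to 0.095). With the trend removed, the log2 fold changes were 0.02 (ROCK1), -0.11 (ROCK2) and 0.02 (PPP1R12A), with adjusted p-values of 0.926, 0.695 and 0.925 in limma. The curve was fitted to these same libraries after the data were seen, so the fall in SD is no independent test. The part of base composition in the spread of these genes was not tested.

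**Figure D2:**
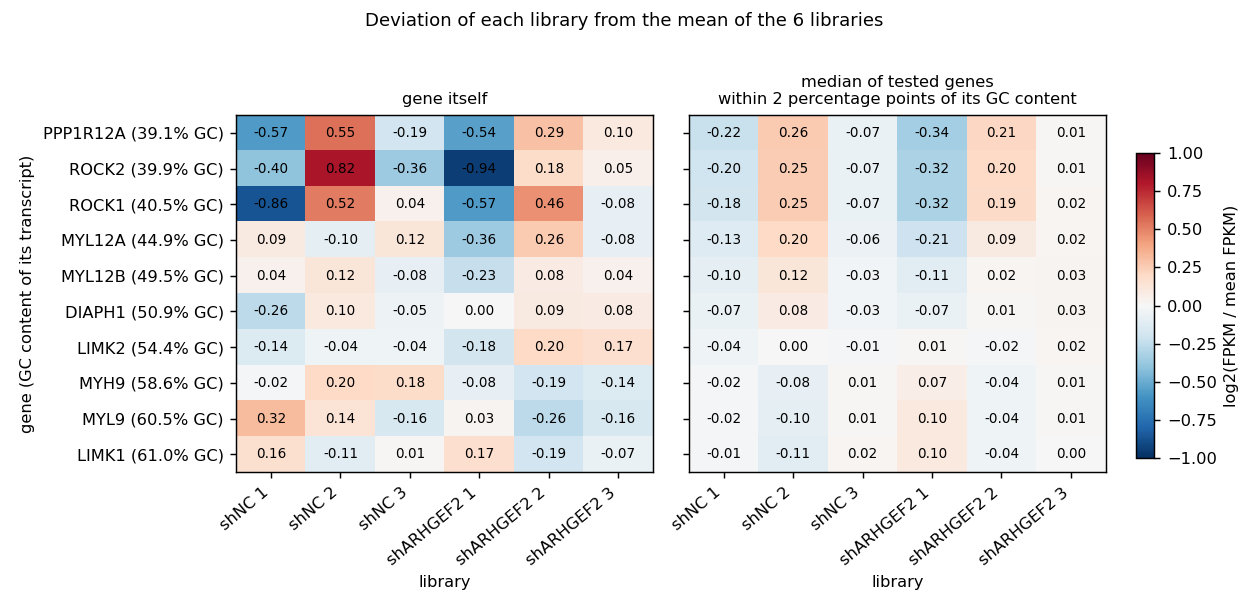
Deviation of each library from the 6-library mean, as log2 of FPKM over mean FPKM, for each effector (left) and for the median of the tested genes within 2 percentage points of its GC content (right), with rows ordered by GC content and columns by library. PPP1R12A, ROCK2 and ROCK1 at the top are below their means in shNC 1 and shARHGEF2 1 and above them in shNC 2 and shARHGEF2 2, as are the genes of like GC content.

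MYH9 (chr22:36281277-36388067, minus strand) encodes the heavy chain of non-muscle myosin IIA, the motor itself. It stood at 85.1, 99.3 and 97.9 FPKM in shNC and at 81.9, 76.0 and 78.8 FPKM in shARHGEF2. Every shARHGEF2 library was below every shNC library, although shNC 1 and shARHGEF2 1 were close. A group order without overlap and with the lower values in shARHGEF2 was found for 9.17% of all genes tested. The means were 94.1 ± 7.80 and 78.9 ± 2.95 FPKM (SD, n = 3 each), a ratio of 0.838, and the exact permutation test gave p = 0.1, the smallest it can give. The log2 fold change was -0.25 ± 0.09 (SE; 95% interval -0.46 to -0.04), with an adjusted p of 0.28 in limma. Its adjusted p ran from 0.142 to 0.569 over the 14 alternatives, so that MYH9 did not pass the threshold in any of them, and its log2 fold change stayed between -0.32 and -0.21.

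MYL9 (chr20:36541484-36551447, plus strand) encodes the regulatory light chain best known from smooth muscle. It stood at 66.7, 58.9 and 48.0 FPKM in shNC and at 54.7, 44.7 and 47.9 FPKM in shARHGEF2. The groups overlapped, with shNC 3 among the shARHGEF2 values, and the SD within shNC exceeded the gap between the means (57.9 ± 9.39 and 49.1 ± 5.11 FPKM, SD, n = 3 each). The log2 fold change was -0.22 ± 0.13 (SE; 95% interval -0.53 to 0.08), with an adjusted p of 0.504 in limma.

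MYL12A (chr18:3247481-3256236, plus strand) and MYL12B (chr18:3261479-3278431, plus strand) are neighbouring genes that encode the non-muscle regulatory light chains. MYL12A stood at 32.7, 28.6 and 33.2 FPKM in shNC and at 23.8, 36.6 and 29 FPKM in shARHGEF2. Both the lowest and the highest value were in shARHGEF2, and the log2 fold change was -0.09 ± 0.15 (SE; adjusted p = 0.847 in limma). MYL12B stood at 73.9, 78.2 and 68.1 FPKM in shNC and at 61.5, 76.4 and 74.3 FPKM in shARHGEF2. These groups overlapped too, and the log2 fold change was -0.06 ± 0.11 (SE; adjusted p = 0.874 in limma). The first shARHGEF2 library was the lowest of the 6 for both genes, and without it their log2 fold changes were 0.05 and 0.04. Since reads can be split between near-identical copies, the pair was also summed. The sum was 105 ± 3.11 FPKM in shNC and 101 ± 14 FPKM in shARHGEF2 (SD, n = 3 each; exact permutation test, p = 0.8, adjusted p = 0.9), and the share of MYL12B in it was 69.9% ± 3.07 and 70.5% ± 2.56 (exact permutation test, p = 0.9, adjusted p = 0.9). The pseudogene MYL12BP1 stood at 3.46 to 4.42 FPKM, and how many of its reads stem from MYL12B was not tested. MYL9 made up 35.4% ± 3.17 of the 3 light chains in shNC and 33.0% ± 5.48 in shARHGEF2 (exact permutation test, p = 0.6, adjusted p = 0.9).

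The 4 myosin II chains among the effectors were set beside the others of the motor. Of MYH10, MYH14, MYL6 and MYL6B, MYH14 was too low to be tested. It averaged 0.0132 FPKM in shNC and 0.0568 FPKM in shARHGEF2, far below the filter of 0.5 FPKM, with the higher values in shARHGEF2. MYL6, an essential light chain, was at 82.6, 72.1 and 69.2 FPKM in shNC and at 60.6, 59.0 and 62.3 FPKM in shARHGEF2, also without overlap. That order, with the lower values in shARHGEF2, was found for 9.17% of all genes tested. The log2 fold change of MYL6 was -0.29 ± 0.09 (SE), with an adjusted p of 0.232 in limma. MYH10, the heavy chain of non-muscle myosin IIB, averaged 5.60 ± 1.13 and 4.90 ± 0.526 FPKM, and MYL6B averaged 13.8 ± 1.15 and 12 ± 0.763 FPKM (SD). All 7 tested chains had a fitted value below 0, from -0.29 to -0.06 with a median of -0.18, where 50.4% of all genes tested were below 0. None of the 7 passed the adjusted threshold, and without the first shARHGEF2 library 5 of the 7 remained below 0. Leaving that library out put the median of all genes tested at 0.0289. With no filter on low values, 7 of the 8 chains were below 0. This group of chains was put together after the values were seen and has no test.

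LIMK1 (chr7:74082933-74122525, plus strand) and LIMK2 (chr22:31212239-31280080, plus strand) encode the kinases that phosphorylate cofilin. LIMK1 stood at 19.1, 15.8 and 17.2 FPKM in shNC and at 19.2, 15.0 and 16.3 FPKM in shARHGEF2. The first library was the highest and the second the lowest of each group, and the log2 fold change was -0.04 ± 0.12 (SE; 95% interval -0.32 to 0.23; adjusted p = 0.92 in limma). LIMK2 stood at 4.07, 4.36 and 4.36 FPKM in shNC and at 3.97, 5.14 and 5.04 FPKM in shARHGEF2. Of the shARHGEF2 libraries, 2 were above and 1 below all shNC libraries, and the log2 fold change was 0.11 ± 0.12 (SE; 95% interval -0.17 to 0.40; adjusted p = 0.75 in limma). LIMK2 made up 19.8% ± 2.07 of the summed FPKM of both kinases in shNC and 22.1% ± 4.36 in shARHGEF2 (exact permutation test, p = 0.5, adjusted p = 0.9).

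DIAPH1 (chr5:141515016-141619055, minus strand) encodes mDia1, the formin that RHOA opens to nucleate and elongate unbranched actin filaments. It stood at 17.9, 23.0 and 20.6 FPKM in shNC and at 21.4, 22.8 and 22.6 FPKM in shARHGEF2. The shARHGEF2 values lay within the range of shNC, and the log2 fold change was 0.12 ± 0.11 (SE; 95% interval -0.13 to 0.37; adjusted p = 0.685 in limma).

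**Figure D3:**
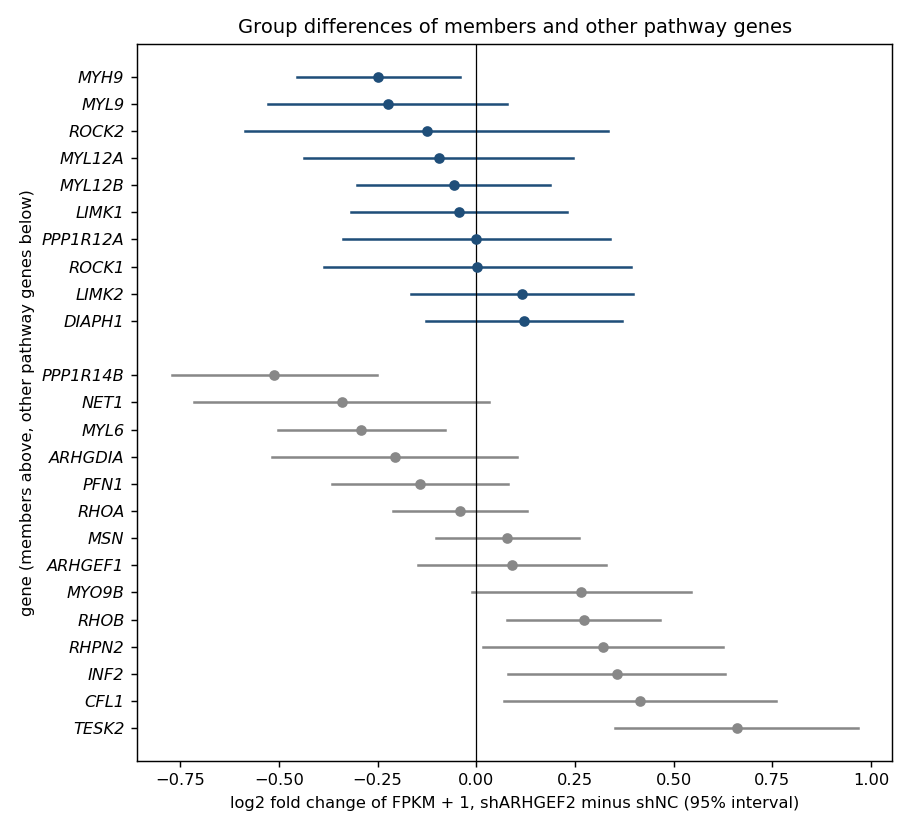
Log2 fold change of FPKM + 1 between shARHGEF2 and shNC (points) with its 95% interval from limma (lines), for the 10 effectors (blue, above) and the 14 other pathway genes named by rule (grey, below), 3 libraries per group. Of the effectors, only the interval of MYH9 lies on 1 side of 0, and no gene shown passed the adjusted threshold.

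The rest of the pathway was described by a list of 64 genes in 8 roles, of which 59 were tested (DLC1, MYH14, MYLK, DIAPH2 and FMN1 were too low). None was called at an adjusted p under 0.05, the smallest adjusted p being 0.114. Fitted values were above 0 for 35 and below 0 for 24, with a median of 0.01, and 7 of 59 had an unadjusted p under 0.05 (5 above 0 and 2 below). The background of 13.7% for that value is close to this share. Both counts moved with single libraries. Below 0 were 36 of 59 without shNC replicate 1 and 18 of 58 without shNC replicate 2. It was 30 of 59 without shNC replicate 3 or shARHGEF2 replicate 3 and 29 of 58 without shARHGEF2 replicate 2. The median log2 fold change of all genes moved too, from -0.0016 to -0.0268 without shNC replicate 1 and to 0.035 without shNC replicate 2. The genes of the list with an unadjusted p under 0.05 in limma numbered 4 without shNC replicate 1 and 14 with the GC trend removed. Over all genes tested the numbers moved the same way, to 1194 of 12354 and 2318 of 12231, from 1678 of 12291. Groups without overlap were found for 4 of the 59 with higher and 2 with lower values in shARHGEF2. Over all genes tested these shares were 11.3% and 9.17%. Each role is given below by its most abundant gene and by the gene of the largest fitted value, so the named genes are not typical of the list.

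Above the effectors, RHOB, a GTPase closely related to RHOA, was at 110.7, 109.4 and 120.4 FPKM in shNC and at 132.8, 146.9 and 132.3 FPKM in shARHGEF2. These groups did not overlap, as for the 11.3% of all genes tested with the higher values in shARHGEF2. The log2 fold change was 0.27 ± 0.09 (SE), with an adjusted p of 0.229 in limma. Of the 7 tested exchange factors, ARHGEF1 had a log2 fold change of 0.09 and NET1 one of -0.34, with adjusted p-values of 0.773 and 0.409 in limma. Of the 6 tested GTPase-activating proteins and dissociation inhibitors, ARHGDIA had -0.21 and MYO9B, a myosin that inactivates RHOA, had 0.27, with adjusted p-values of 0.562 and 0.386. None of these genes was separated from the spread between libraries after adjustment.

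Among the 9 tested light chain kinases and phosphatase parts, PPP1R14B, an inhibitor of the myosin phosphatase, was both the most abundant and the one with the largest fitted value. It stood at 328, 266 and 282 FPKM in shNC and at 204, 182 and 229 FPKM in shARHGEF2. All shARHGEF2 libraries were below all shNC libraries, as for 9.17% of all genes tested. Its log2 fold change was -0.51 ± 0.11 (SE; 95% interval -0.77 to -0.25), with an adjusted p of 0.126 in limma, and its adjusted p ran from 0.0737 to 0.435 over the alternatives.

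In the cofilin branch, CFL1, the cofilin that the LIM kinases inactivate, was at 110.3, 129.2 and 91.6 FPKM in shNC and at 163.5, 122.1 and 155.8 FPKM in shARHGEF2. The groups overlapped through the second libraries, and the log2 fold change was 0.41 ± 0.15 (SE; adjusted p = 0.282 in limma). TESK2, another kinase that phosphorylates cofilin, was at 0.93, 1.18 and 1.47 FPKM in shNC and at 2.17, 2.43 and 2.77 FPKM in shARHGEF2. The groups did not overlap (11.3% of all genes tested with higher values in shARHGEF2), and the ratio of the means was 2.06. Adding 1 FPKM compresses values this low, and with a pseudocount of 0.1 FPKM the log2 fold change was 0.9967. On the scale used throughout it was 0.66 ± 0.14 (SE), with an adjusted p of 0.114 in limma. This was the smallest adjusted p of the list, and over the alternatives it ran from 0.0675 to 0.399.

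Of the formins and profilins, PFN1, the profilin that feeds actin to formins, averaged 1120 ± 116 FPKM in shNC and 1020 ± 61.7 FPKM in shARHGEF2 (SD), a log2 fold change of -0.14 with an adjusted p of 0.579 in limma. INF2, a formin that also severs filaments, was at 18.6, 17.4 and 23.4 FPKM in shNC and at 24.7, 26.8 and 24.9 FPKM in shARHGEF2. Its groups did not overlap (11.3% of all genes tested with higher values in shARHGEF2), and its log2 fold change was 0.36 ± 0.12 (SE; adjusted p = 0.251 in limma). With DIAPH1, all 9 tested formins had a fitted value above 0, from 0.01 to 0.36 with a median of 0.06. Over all genes tested, 6102 of 12291 were above 0, and the median size was 0.13. The count of formins above 0 fell to 6 of 9 without the first shNC library, where the median of all genes tested was -0.0268. It was 7 of 9 without any 1 of the shARHGEF2 libraries. Without the third shNC library or with the GC trend removed it was 8 of 9. Like that of the myosin chains, this group was put together after the values were seen and has no test. Among other RHOA effectors and ROCK substrates, MSN (moesin, a membrane-actin linker) had a log2 fold change of 0.08 and RHPN2 (rhophilin 2) one of 0.32, with adjusted p-values of 0.727 and 0.345 in limma.

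The direction of the fitted value depended on single libraries for most of the effectors. MYH9 and MYL9 stayed below 0 and LIMK2 and DIAPH1 above 0 in each of the 14 alternatives. ROCK1, ROCK2, PPP1R12A, MYL12A, MYL12B and LIMK1 crossed 0 when 1 library was left out. Leaving out 1 library also moved the median of all genes tested, to between -0.0268 and 0.035. The size of the fitted value moved by over 1.5 times for 3 of the 4 effectors that kept their side. MYL9 went to -0.12 without shNC replicate 1 and to -0.35 without shNC replicate 3. LIMK2 went to 0.06 without shARHGEF2 replicate 2, to 0.07 without shARHGEF2 replicate 3 and to 0.21 without shARHGEF2 replicate 1. DIAPH1 went to 0.03 without shNC replicate 1 and to 0.20 without shNC replicate 2.

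**Figure D4:**
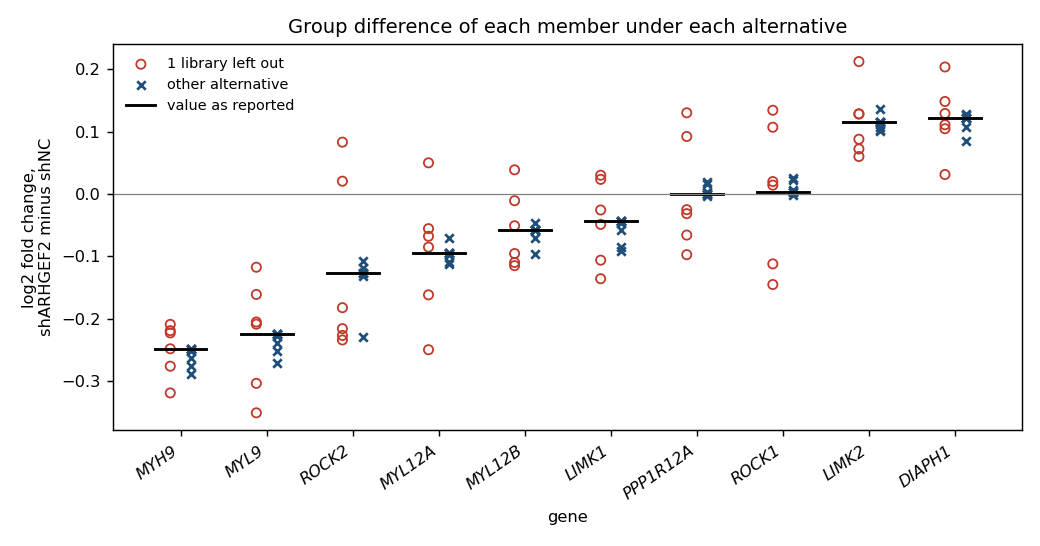
Log2 fold change, shARHGEF2 minus shNC, of each effector as reported (black line), with 1 library left out (red circles, 6 per gene) and under the other alternatives (blue crosses, 8 for most genes and 7 for ROCK1, ROCK2 and PPP1R12A). The 2 genes at the left, MYH9 and MYL9, and the 2 at the right, LIMK2 and DIAPH1, keep their side of 0, and the 6 between them cross it.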

How the data were processed

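RNA of HepG2 cells was purified with oligo(dT) beads, fragmented and sequenced as 150 nt paired reads with molecular identifiers. The submitters' processing notes name cutadapt 1.9, HISAT2 2.0.4, UMI-tools, StringTie 1.3.4d, DESeq2, edgeR and hg19, with no role given. The authors deposited 1 table of FPKM for 27605 genes and 6 libraries, with no counts. Their fold change and p-value columns were not used, nor were the annotation columns. Of the 112516 transcripts listed, 106543 (94.7%) were in GENCODE 29, whose GRCh38 positions, GC content and sequences are given here, although the notes name hg19. Whether reads were assigned by strand is not given in the sources used here.

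Depth was roughly estimated from the spacing of low values as 39880000 to 46280000 units per library. Of these values, 39.2% to 40.4% lay within 0.1 of a whole number. The depth was chosen to bring these same values near whole numbers, so the 20.0% of a depth fixed beforehand is no fair comparison. A unit may be a read or a read pair. ROCK1 then stands for 183 to 460 units, ROCK2 for 164 to 611 and PPP1R12A for 108 to 253. No interval was drawn from them.

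Groups were taken from the sample labels. Differences were fitted with limma 3.58.1 in R 4.3.3 (eBayes with trend and robust estimation, statmod 1.5.0) on log2(FPKM + 1) for the 12291 genes that averaged 0.5 FPKM or more, adjusted by the Benjamini-Hochberg method and called at 0.05, two-sided. Shares and sums were compared by exact permutation tests (SciPy 1.17.1). The fit was tested on simulated data. Sequences were aligned with Biopython 1.88, and plots were drawn with matplotlib 3.10.9. The genes and lists were chosen with earlier results of these data known. All 10 effectors are named, and of the 64 other genes those called and, in each role, the most abundant and the one with the largest fold change. MYH10 and MYL6B fall outside this rule and were named after their values were seen. The genes were refitted with each library left out (also done for shares and sums), quantile normalization, median-of-ratios scaling, 0.1 FPKM as pseudocount, no filter or a filter of 1 FPKM in 3 libraries, no trend or robust variances, and the replicate number as a block. Subtraction of a loess curve on GC content (span 0.3) from each library was chosen after seeing the data.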

Additional observations from a re-analysis of the deposited data

How the results depend on the processing

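No effector and no gene of the list of 64 was called under any alternative run (replicate block, pseudocount, filters, scalings, variance model, GC trend removed, each library left out), and ROCK1, ROCK2 and PPP1R12A were not tested under the stricter filter. Over all genes tested, the residuals of libraries with the same number correlated at 0.184, 0.159 and -0.105. The genes low in G and C had the same order of libraries in both groups. These correlations therefore do not settle whether the numbers pair the libraries. With the replicate block, 0 genes were called (1976 at an unadjusted p under 0.05), and ARHGEF2, at -1.47, had an adjusted p of 0.0716 in limma. Without a filter 1 gene was called, and ARHGEF2, at -1.47, had 0.0701. Of all genes, 34 were called in the fit reported, 54 with at least 1 FPKM in 3 libraries, 19 with quantile normalization, 7 with median-of-ratios scaling, 7 without trend or robust variances, 58 with the GC trend removed, and 6 (without shARHGEF2 replicate 3) to 102 (without shNC replicate 3) with 1 library left out. Median-of-ratios scaling gave -0.001 for ROCK1 and -0.0037 for PPP1R12A, and quantile normalization 0.0087 for RHOA. Under these scalings the median log2 fold change of all genes was -0.012 and -0.0081. With 1 library left out, the log2 fold change ran from -0.14 to 0.13 for ROCK1, -0.23 to 0.0831 for ROCK2, -0.25 to 0.05 for MYL12A, -0.11 to 0.0388 for MYL12B, -0.10 to 0.13 for PPP1R12A, -0.14 to 0.0301 for LIMK1, -0.35 to -0.12 for MYL9, -0.32 to -0.21 for MYH9, 0.06 to 0.21 for LIMK2 and 0.03 to 0.20 for DIAPH1. The difference in percentage points ran from -0.764 to 2.27 for the MYL12B share, -5.37 to -0.0179 for the MYL9 share, -9.41 to -2.05 for the ROCK2 share and 0.581 to 4.74 for the LIMK2 share, and that in the sum of MYL12A and MYL12B from -10.6 to 3.21 FPKM. The cause of these changes was not tested.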
